A study of Danio rerio with 20 samples.

Results

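A hindbrain, a spinal cord and an ear regulator were followed in zebrafish embryos kept in organic solvents. They are mafba (probe 45c09), dbx1b (probe 45o09) and hmx3a (probe 45m10), each measured by 1 spot per array. They were chosen by probe ID, and they are 3 of the 16578 probe spots of an array and 3 of the 47 spots that could be given a gene symbol. All 3 had enough measurements to be tested, among 3652 tested probes.

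The study set whole embryos kept in dimethyl sulfoxide (DMSO) or in dimethylformamide (DMF) against unexposed ones. Both are solvents used to carry poorly soluble chemicals into test water. The 5 groups were control embryos, low DMSO and low DMF (0.025 ml/L each) and high DMSO and high DMF (0.1 ml/L each), all sampled at 48 h post fertilisation after exposure from early cleavage on. An RNA sample came from the pooled surviving embryos of 1 plate, here called a pool, and each group had 4 pools. Each array compared 2 pools, one labelled with Cy3 and the other with Cy5, and each pair of pools was hybridised again with the dyes exchanged. The labels name no strain, and a pool gives no value of a single embryo.

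The 20 arrays formed 10 dye-swapped pairs, of which 9 pairs (18 arrays) were used. The file of array 1 carries the scan name of array 17. Over spots, the raw log ratios on both had a correlation of 0.949, while the highest among 189 further pairs of arrays was 0.690. Array 1 was left out, and with it its partner, so high DMSO and low DMF each kept 3 pools. The scan names place 12 of the used arrays in a second batch and 6 in a last batch. In all 6 pairs of the second batch the same pool was the nearer to empty spots on both arrays, and it is here called the dimmer pool. The term is relative to the empty spots of the channel. These pools were all in Cy3 on arrays 3 to 8 and all in Cy5 on arrays 9 to 14. A trait of the pool therefore cannot be told apart from one of the channel in each set of arrays. The median spot of a dimmer pool was 1.12 to 1.88 times as bright as empty spots. This held for control replicate 1, high DMSO replicate 3, low DMF replicate 1 and low DMSO replicates 2 to 4. None of the 31 tissue markers listed for a whole embryo was among the probes with a symbol, so the tissue make-up of the pools could not be checked.

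The vertebrate hindbrain forms from segments called rhombomeres, and the bZIP transcription factor Mafba, the product of the zebrafish valentino gene, sets the identity of the segments beside the developing ear. Dbx1b is a homeodomain factor of progenitor cells in the intermediate spinal cord and hindbrain, from which a class of commissural interneurons arises. Hmx3a is a homeodomain factor of the otic vesicle and lateral line, and zebrafish that lack it have defects of the ear and of spinal interneurons. In whole-embryo RNA these genes come from a small share of the cells. Fewer cells of a type and less RNA per cell cannot be told apart here.

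The signal behind the values differed between the scan batches. Each spot carries a confidence value from 0 to 1 and a grade from A to E, and spots of grade E were left out. The mafba spot had grade A on 5, B on 6, C on 4 and D on 3 of the 18 arrays. The dbx1b spot had A on 5, B on 5, C on 4, D on 3 and E on 1 array. That grade E, with a confidence of 0.02 on array 7, left dbx1b with 8 of 9 pairs. The hmx3a spot had A on 6, B on 2, C on 7 and D on 3 arrays. No grade A was given to any of the 3 spots in the second batch, while in the last batch the grades were A, apart from 1 B for mafba and 1 B for dbx1b.

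The amplitude over the median of empty spots shows the same split. On arrays 3 to 8 the Cy3 amplitude of mafba was 2.15 to 6.75 times the empty spots, that of dbx1b 1.08 to 2.98 times and that of hmx3a 2.08 to 4.91 times. On arrays 9 to 14 the channel nearer to empty spots was Cy5. There, mafba had 0.917 to 2.67, dbx1b 1.12 to 2.83 and hmx3a 0.83 to 4.15 times the empty spots. These ratios depend on the empty spots of the channel and do not rank the raw amplitudes. The mafba amplitude on array 14 was 1527 in Cy5 and 991 in Cy3, and on array 10 it was 586 and 904. Both channels stood clear of empty spots in the last batch. There, mafba ranged from 7.52 to 109, dbx1b from 7.14 to 111 and hmx3a from 4.89 to 63.6 times. The lowest values of mafba and hmx3a, 0.917 and 0.83, were both in Cy5 on array 14 and lay below the empty spots. The files give a probability that a channel holds signal, and it was 0.11 for mafba, 0.18 for dbx1b and 0.1 for hmx3a there. The pool in that channel was low DMSO replicate 2.

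**Figure D1:**
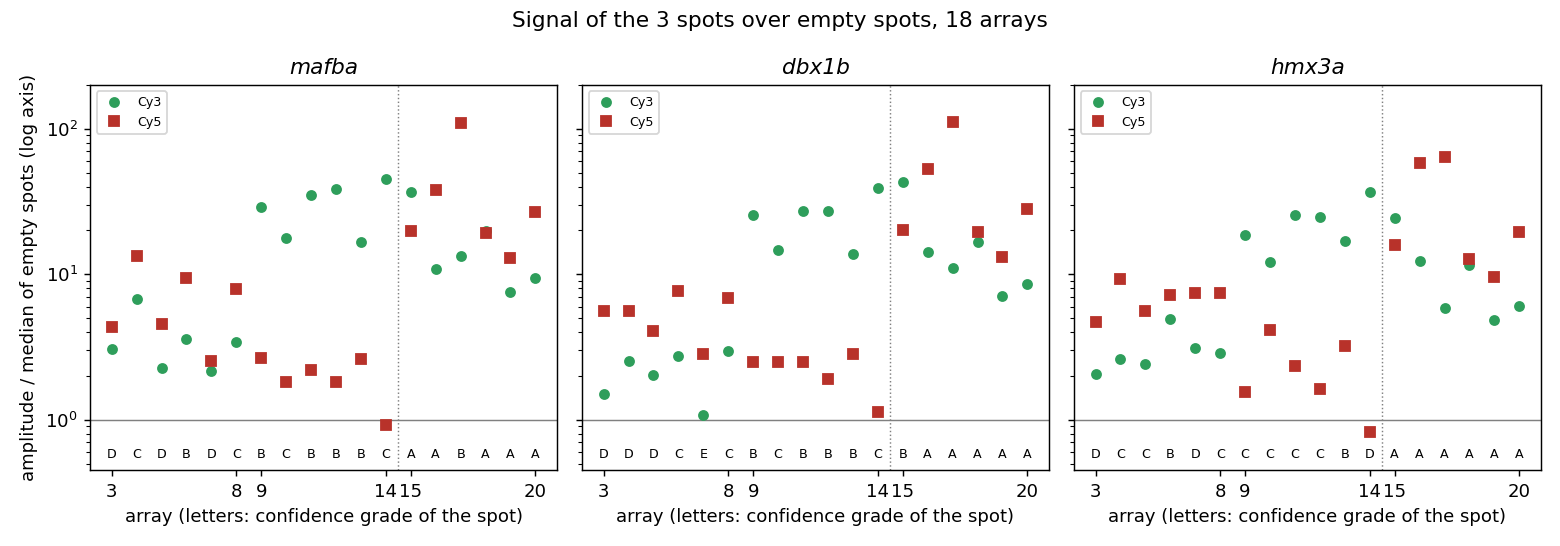
Amplitude of the 3 spots divided by the median amplitude of empty spots of the same array and channel, on a log axis, for the 18 arrays used. Circles are Cy3 and squares Cy5, the letters are confidence grades, the line at 1 is the level of empty spots and the dotted line parts the second scan batch from the last. On arrays 9 to 14 the Cy5 values of mafba lie between 0.917 and 2.67.

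The hindbrain gene mafba did not pass the test in any comparison of groups. Its log2 level, the channel signal after normalization within and between arrays, was 9.38, 9.98, 9.98 and 10.08 in control replicates 1 to 4. It was 9.93, 9.98, 9.50 and 10.00 in the 4 pools of low DMSO. Replicate 1 of control and replicate 3 of low DMSO stood apart at the low end. Both are among the dimmer pools, but so are low DMSO replicates 2 and 4, the highest of that group. With high DMSO the levels were 10.30, 10.28 and 9.44 in replicates 2, 3 and 4. With low DMF they were 9.13, 9.44 and 9.60 in replicates 1, 3 and 4, and with high DMF 9.95, 9.58, 9.39 and 9.69 in replicates 1 to 4. All 10 pairs of groups overlapped in their ranges.

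In order of the mean level, mafba was highest with high DMSO at 10.01 ± 0.49 (SD, n = 3), followed by control at 9.85 ± 0.32 (SD, n = 4) and low DMSO at 9.85 ± 0.24 (SD, n = 4). high DMF had 9.65 ± 0.24 (SD, n = 4) and low DMF 9.39 ± 0.24 (SD, n = 3). Neighbours in this order differed by 0.00 to 0.26, with overlapping ranges at each step. The levels compare different arrays and scan batches, so the tests below rest on ratios within an array.

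The pair ratios of mafba, each the mean of both dye orientations, went in both directions. Of the 4 pairs with a control pool, low DMSO replicate 1 gave a log2 ratio of 0.55 over control replicate 1, and low DMF replicate 1 gave -0.84 over control replicate 2. high DMSO replicate 3 gave 0.20 over control replicate 4, and high DMF replicate 1 gave -0.02 over control replicate 3. The pair at -0.84 was the farthest from 0 of the 9. Its orientations gave -1.07 and -0.62, so both dye assignments showed less mafba in the DMF pool. That pool is the dimmer of its pair. Over the second batch the brighter pool was higher in 4 of 6 pairs for mafba, 4 of 5 for dbx1b and 4 of 6 for hmx3a. The part of the brightness in the ratios was not tested. Among exposed pools, high DMF replicate 4 gave -0.31 over low DMSO replicate 4, and high DMSO replicate 2 gave 0.32 over low DMSO replicate 2. low DMF replicate 4 gave 0.10 over low DMSO replicate 3. The 2 remaining pairs, both with high DMF, gave 0.14 over low DMF replicate 3 and -0.06 over high DMSO replicate 4. Both orientations had the same sign in 8 of 9 pairs, against a median of 4 of 9 over all tested probes.

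Fitted over all 9 pairs, mafba differed from control by 0.06 ± 0.23 (SE of the fit) with low DMSO, 0.19 ± 0.25 with high DMSO, -0.30 ± 0.25 with low DMF and -0.07 ± 0.23 with high DMF. The adjusted p-values were 0.996, 0.799, 0.905 and 0.999. Between the solvents, DMF minus DMSO was -0.36 ± 0.25 at 0.025 ml/L (adjusted p = 0.673) and -0.26 ± 0.25 at 0.1 ml/L (adjusted p = 0.696). The 95% intervals ran from -0.90 to 0.18 and from -0.81 to 0.28, so they include no difference as well as a level in DMF that is lower by 0.8 on the log2 scale. The negative values for low DMF rest on 1 pair: without low DMF replicate 1 and control replicate 2, the difference from control was 0.18 and that from low DMSO -0.09. Without low DMF replicate 4 and low DMSO replicate 3, these were -0.53 and -0.76.

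**Figure D2:**
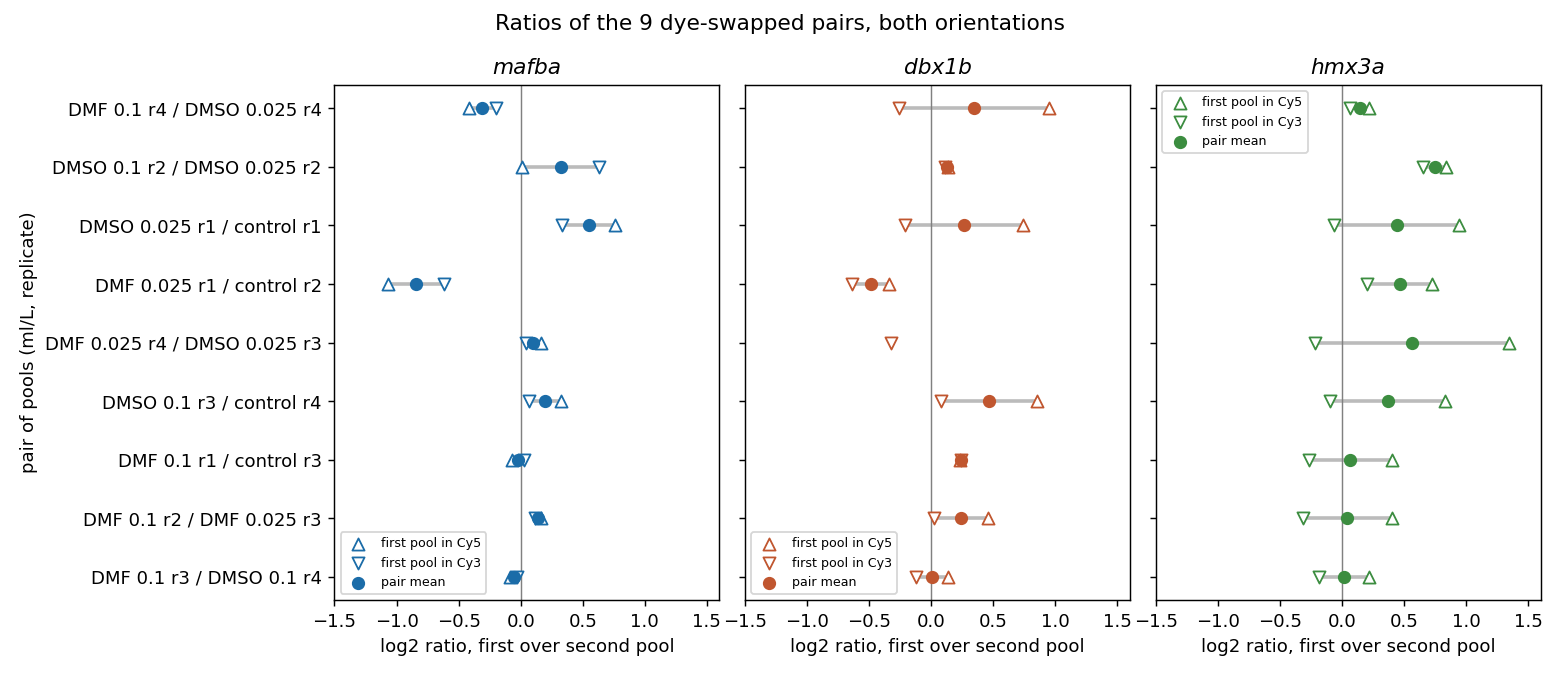
Log2 ratio of the first over the second pool for mafba, dbx1b and hmx3a in the 9 dye-swapped pairs. Upward triangles have the first pool in Cy5, downward triangles have it in Cy3, and filled circles are the pair means that entered the tests. For mafba the triangles lie on the same side of 0 in 8 of 9 pairs, though they differ by as much as 0.01 against 0.63, and for hmx3a the upward triangle is to the right in 9 of 9 pairs.

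The spinal cord gene dbx1b did not pass the test either. Its log2 level was 9.32, 9.70, 9.85 and 9.80 in control replicates 1 to 4, and 9.59, 9.44 and 9.45 in replicates 1, 2 and 4 of low DMSO. With high DMSO it was 9.57, 10.27 and 9.38 in replicates 2, 3 and 4. The pool at 10.27, high DMSO replicate 3, was the highest of all. With low DMF the level was 9.21 and 9.53 in replicates 1 and 3, the lowest pool being replicate 1, and with high DMF it was 10.09, 9.77, 9.39 and 9.79 in replicates 1 to 4. The ranges overlapped in 10 of 10 pairs of groups. The group means were 9.76 ± 0.29 (SD, n = 4) with high DMF, 9.74 ± 0.47 (SD, n = 3) with high DMSO, 9.67 ± 0.24 (SD, n = 4) in control, 9.49 ± 0.08 (SD, n = 3) with low DMSO and 9.37 ± 0.23 (SD, n = 2) with low DMF. No neighbours in this order were separated, the steps being 0.02 to 0.17.

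Over a control pool, dbx1b had a log2 ratio of 0.26 in low DMSO replicate 1, -0.49 in low DMF replicate 1, 0.47 in high DMSO replicate 3 and 0.24 in high DMF replicate 1. Low DMF replicate 1 was the 1 exposed pool below its control for dbx1b, and the lowest of the 4 for mafba too. Over low DMSO, the ratio was 0.34 in high DMF replicate 4 and 0.12 in high DMSO replicate 2. high DMF gave 0.24 over low DMF (replicates 2 and 3) and 0.01 over high DMSO (replicates 3 and 4). In the pair without a value, array 13 alone gave -0.33 for low DMF replicate 4 over low DMSO replicate 3. Both orientations had the same sign in 5 of 8 pairs, where the median over all tested probes was 4 of 9.

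The widest of its fitted differences was between the DMF concentrations, where dbx1b had 0.49 ± 0.23 (0.1 minus 0.025 ml/L; adjusted p = 0.999), a 95% interval of -0.00 to 0.99. Of all tested probes, 4.79% differed by at least as much in this comparison. Against control, high DMSO gave 0.32 ± 0.21 (adjusted p = 0.541), high DMF 0.26 ± 0.19 (adjusted p = 0.999), low DMSO 0.13 ± 0.21 and low DMF -0.23 ± 0.24. DMF minus DMSO was -0.36 ± 0.23 at 0.025 ml/L and -0.06 ± 0.21 at 0.1 ml/L. The step between the DMF concentrations was 0.24 without the pair of low DMF replicate 1 and control replicate 2, 0.88 without that of high DMF replicate 2 and low DMF replicate 3, and 0.28 with the grade E spot kept.

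The spots of dbx1b and mafba lie in row 1 of block 15, at columns 14 and 11. Between them stand hoxb5a at column 12 and hoxb1b at column 13, both homeobox genes of the hindbrain and trunk. By likeness, measured as the cosine of the pair ratios (1 for the same pattern, 0 for none), hoxb1b was the closest named gene to dbx1b, at 0.89 over 8 pairs, and ranked 2 among 3083 probes. The next named genes were mafba (0.61) and hoxb5a (0.55). The 3 named genes most like dbx1b were therefore the 3 spots directly before it in the row. The median cosine with dbx1b was 0.12 over 71 probes of block 15 and 0.03 over 3011 probes of other blocks. A record without a gene symbol, BI883638 in block 20, had a cosine of 0.92.

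In the pair of low DMF replicate 1 and control replicate 2, the 4 neighbouring spots gave -0.84 (mafba), -0.72 (hoxb5a), -0.73 (hoxb1b) and -0.49 (dbx1b). In that pair the median of the 84 tested probes of block 15 was -0.23, against -0.06 over all tested probes. The block as a whole was thus below the array in this pair, by less than the 4 spots. The part of the position on the slide in the pair ratios was not tested. With loess fitted within each block, low DMF minus control was -0.20 for mafba and -0.09 for dbx1b. The ratios of hoxb1b and dbx1b had the same sign in 8 of 8 pairs, those of mafba and dbx1b in 5 of 8.

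**Figure D3:**
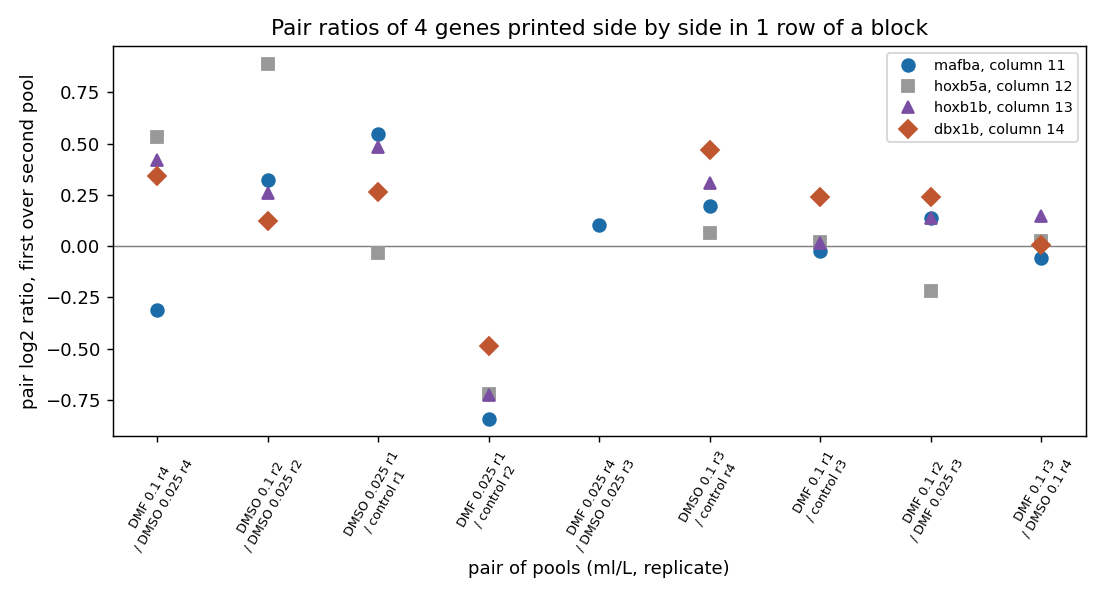
Log2 pair ratios of mafba, hoxb5a, hoxb1b and dbx1b, whose spots stand side by side in row 1 of block 15, for the 9 pairs of pools. In the pair of DMF 0.025 ml/L replicate 1 and control replicate 2, all 4 spots lie between -0.84 and -0.49. One pair holds a value of mafba alone.

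For the ear gene hmx3a, the fitted difference from control was larger than for the other genes with high DMSO, and it did not pass the test. Its log2 level was 9.30, 9.53, 9.25 and 9.81 in control replicates 1 to 4. With low DMSO it was 9.74, 9.14, 9.92 and 9.30. Control and low DMSO thus spanned nearly the same range. With high DMSO the levels were 9.88, 10.18 and 8.91 in replicates 2, 3 and 4, so this group held both a high pair of pools and the lowest pool of all. With low DMF they were 10.00, 9.36 and 10.49 in replicates 1, 3 and 4, and with high DMF 9.32, 9.41, 8.92 and 9.44. The highest pool was low DMF replicate 4, and 10 of 10 pairs of groups overlapped.

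The means of hmx3a were 9.95 ± 0.57 (SD, n = 3) with low DMF, 9.66 ± 0.67 (SD, n = 3) with high DMSO, 9.52 ± 0.37 (SD, n = 4) with low DMSO, 9.47 ± 0.26 (SD, n = 4) in control and 9.27 ± 0.24 (SD, n = 4) with high DMF. Neighbours in this order differed by 0.05 to 0.29 and overlapped. The scan batch moved with these levels. The 6 pools of the last batch lay between 8.91 and 9.41, the 12 pools of the second batch between 9.14 and 10.49, and 3 of the 4 pools of high DMF were in the last batch. In the fitted ratios all 4 exposed groups were above control, an order that differs from that of the levels. The part of the scan batch in the order of the levels was not tested.

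**Figure D4:**
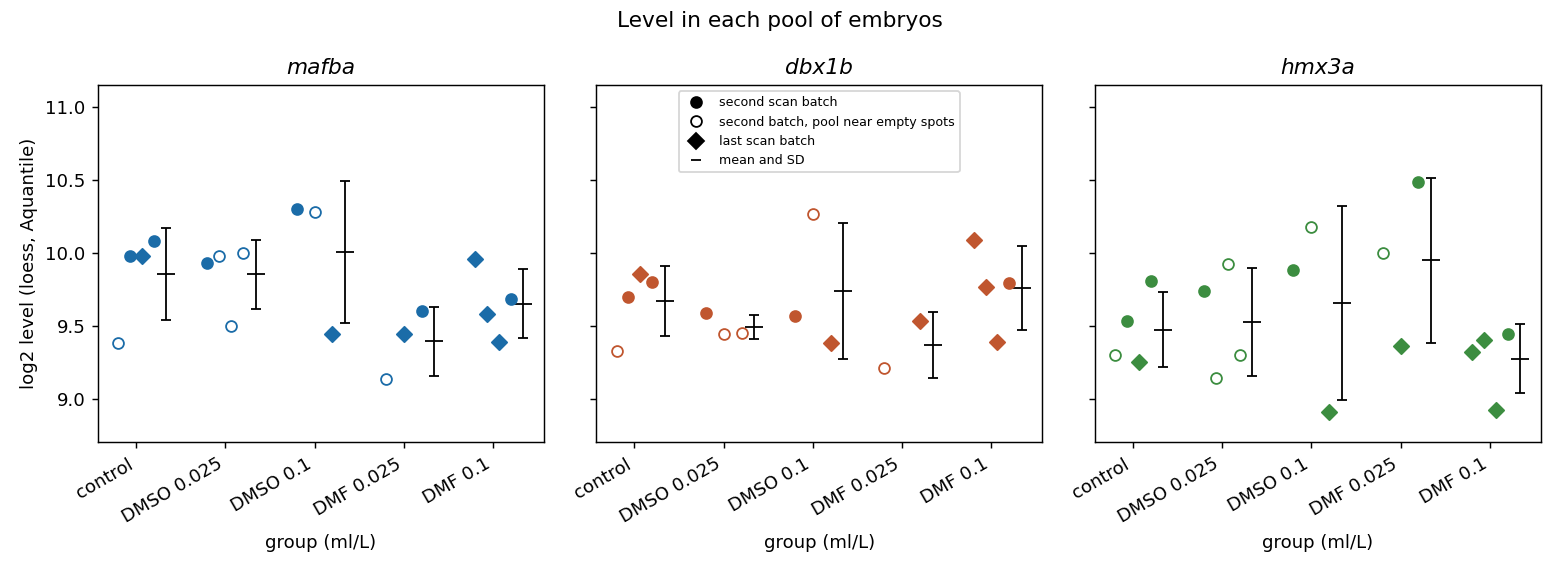
Log2 level of mafba, dbx1b and hmx3a in each pool by group, with the mean and SD beside the points. Circles are pools of the second scan batch, open where the pool was the nearer of its pair to the empty spots of its channel. Diamonds are pools of the last batch, and levels of different genes are not comparable. The 6 diamonds of hmx3a lie at 9.41 or below.

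The pair ratio of hmx3a, the mean of both dye orientations, was above 0 in each of the 4 pairs of an exposed with a control pool. It was 0.44 in low DMSO replicate 1, 0.47 in low DMF replicate 1, 0.37 in high DMSO replicate 3 and 0.07 in high DMF replicate 1. Both orientations were above 0 for low DMF replicate 1 alone (0.73 and 0.20). They differed in sign for low DMSO replicate 1 (0.95 and -0.07), high DMSO replicate 3 (0.83 and -0.10) and high DMF replicate 1 (0.40 and -0.26). Of 3446 tested probes with a value in all 4 control pairs, 4.27% likewise had a pair ratio above 0 in every one. This count was looked at after the values were seen. In the authors' deposited table the last of these pairs gave -0.00, so the pattern held in 3 of the 4 pairs there. Among exposed pools, high DMSO replicate 2 gave 0.75 over low DMSO replicate 2, and low DMF replicate 4 gave 0.56 over low DMSO replicate 3. The former is the farthest from 0 of the 9 pairs, and its Cy5 channel on array 14 is the one below the empty spots. The other pairs gave 0.14 (high DMF over low DMSO), 0.05 (high DMF over low DMF) and 0.02 (high DMF over high DMSO).

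The dye weighed more on hmx3a than on the other genes. Its Cy5 over Cy3 log2 ratio, averaged over both orientations so that the pools cancel, was 0.08 to 0.78 with a median of 0.33. It was above 0 in 9 of 9 pairs, as for 12.9% of the 2685 probes with a value in every pair, and 8.41% of tested probes had a median dye effect at least as high. The orientations of a pair gave the same sign in 3 of 9 pairs, near the median of 4 of 9 over all tested probes. For low DMF replicate 4 over low DMSO replicate 3 they gave 1.34 and -0.22. On array 7, which gave the 1.34, the hmx3a spot had grade D, a confidence of 0.22 and a signal probability of 0.35 in Cy3. Its log2 ratio there was -1.58 before loess, and 0.64 in the authors' deposited table. The median loess ratio of the probes in block 9 of that array was 0.39. For mafba the dye effect was -0.31 to 0.21 with a median of -0.03, and for dbx1b it was -0.00 to 0.61 with a median of 0.18. A dye effect that is equal on both arrays cancels in the pair mean.

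Fitted over all pairs, hmx3a differed from control by 0.49 ± 0.22 with high DMSO, a 1.41-fold level with a 95% interval of 1.01 to 1.96-fold (adjusted p = 0.388). This was the 1 value of the 3 genes with an unadjusted p under 0.05 in the 8 comparisons. In the same comparison, 449 of the 3652 tested probes were under that limit. Differences at least as large were found in 15% of tested probes. With low DMF the difference from control was 0.46 ± 0.22 (adjusted p = 0.815), with high DMF 0.32 ± 0.20 (adjusted p = 0.999) and with low DMSO 0.07 ± 0.20 (adjusted p = 0.996). The 95% intervals of the latter 3 ran from -0.02 to 0.93, from -0.12 to 0.76 and from -0.37 to 0.50. In the second scan batch alone, the 4 differences from control were 0.61 and 0.10 for DMSO (0.1 and 0.025 ml/L) and 0.25 and 0.56 for DMF. The last batch holds 3 pairs and could not be fitted alone; its control pair is the one at 0.07.

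The fitted concentration step of hmx3a was above 0 in DMSO and below 0 in DMF, and neither it nor the difference between the steps passed the threshold. From 0.025 to 0.1 ml/L the value was 0.43 ± 0.22 in DMSO (adjusted p = 0.346) and -0.13 ± 0.22 in DMF (adjusted p = 0.999). The 95% intervals, -0.04 to 0.90 and -0.61 to 0.34, both included 0. The pair that set high DMF directly against low DMF gave 0.05, with orientations of 0.40 and -0.31. The step in DMF minus that in DMSO was -0.56 ± 0.29 (adjusted p = 0.407), with a 95% interval of -1.18 to 0.06. At matched concentrations, DMF minus DMSO was 0.39 ± 0.22 at 0.025 ml/L (adjusted p = 0.602) and -0.17 ± 0.22 at 0.1 ml/L (adjusted p = 0.778). With the empty-spot level subtracted, limma gave a step in DMSO of 1.40 (adjusted p = 0.323). High DMSO minus control was 1.11 there (adjusted p = 0.558). That setting puts signals less than 16 above the empty spots at a floor of 16, among them hmx3a in Cy5 on array 14. The pair of high DMSO and low DMSO replicates 2 is the pair with this channel. Without that pair, and with no background correction, the step in DMSO was 0.15 and the difference of the steps -0.32. For mafba the step in DMF minus that in DMSO was 0.10 ± 0.33, and for dbx1b 0.30 ± 0.29.

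By likeness, the named genes closest to hmx3a over 9 pairs were the forebrain and jaw genes dlx1a (0.69, rank 117 of 2684 probes) and dlx2a (0.45) and the growth factor receptor igf1rb (0.14). The dlx1a spot lies in the same row of block 9 as hmx3a, at column 12 where hmx3a is at column 14. The probes of any kind most like it were the records BI705732 (0.97) and BI879837 (0.93). Among probes with a ratio in all 9 pairs, the named genes closest to mafba were the zinc finger factor zeb1b (0.62, rank 147), dlx2a (0.41) and naca (0.22), and the records AI584197 (0.92) and BM155683 (0.90). Its neighbours on the slide have 8 pairs and did not enter that ranking. Over those 8 pairs the cosine with mafba was 0.75 for hoxb1b, above that of zeb1b, and 0.48 for hoxb5a. With 9 named genes compared for these 2 members and 12 for dbx1b, the named lists hold weak likeness too. Among the 3 regulators, the cosine was 0.61 for mafba with dbx1b, 0.13 for mafba with hmx3a and 0.25 for dbx1b with hmx3a. These are descriptions, and the probes compared were measured on the same arrays and pools.

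None of the 3 genes was called in any of the 8 comparisons by limma at an adjusted p under 0.05. The background of calls in the fit of pair ratios was low as well. Against control, limma called 0% of the 3652 tested probes with low DMSO, 0.274% with high DMSO, 0% with low DMF and 0% with high DMF. Between concentrations it called 0.383% in DMSO and 0% in DMF, and between the solvents 0% at 0.025 ml/L and 0.548% at 0.1 ml/L. Where limma called none, an unadjusted p under 0.05 was reached by 160 (low DMSO), 227 (low DMF) and 34 (high DMF) probes against control. It was reached by 104 between the DMF concentrations and by 348 between the solvents at 0.025 ml/L. If no probe differed, a share of about 0.05 of the 3652 probes would fall under that limit. The counts of 227 and 348 were above this share, and those of 160, 34 and 104 below it. With separate channels, limma called 9, 57, 0, 6 and 125 of 2685 probes in these 5 comparisons. That fit, which counts the 18 arrays as independent, called 174 for high DMSO minus control, 367 between the DMSO concentrations, 286 between the solvents at 0.1 ml/L and 265 for the difference of the steps. In its 8 comparisons it called neither mafba nor hmx3a, and dbx1b could not be tested. The adjusted p of hmx3a there was 0.0713 between the DMSO concentrations and 0.0737 between the solvents at 0.025 ml/L. Against control it was 0.0823 with high DMSO and 0.0853 with low DMF. The separate-channel fit did call hmx3a in the difference of the steps (adjusted p = 0.0442). It also called it in the F test (adjusted p = 0.0309), among 406 of 2685 probes. In the fit of pair ratios, the difference of the steps was called for 0.274% of the 3652 probes. There, the F test over the 5 groups was called for 0.0821%, with 0 of the 3 genes in either. At an unadjusted p under 0.05, 0 of the 3 were in the F test or in the difference of the steps. The adjusted p of the F test was 0.854 for mafba, 0.674 for dbx1b and 0.576 for hmx3a.

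The largest differences of the 3 genes in the 8 comparisons were 0.49, for hmx3a (high DMSO minus control) and dbx1b (between the DMF concentrations). With adjusted p-values of 0.388 and 0.999 by limma, differences of this size did not pass here. The 95% interval of a tested probe, which is not adjusted for the number of probes, reached a median of 0.46 to 0.50 to either side. The residual standard deviation of a pair ratio, after moderation by limma, was 0.37 for mafba, 0.31 for dbx1b and 0.32 for hmx3a. Its median over all tested probes was 0.33. Moderation draws each value toward a common value, so these are not the spread of each gene alone. Nothing in these values shows that the solvents leave the 3 genes at the control level.

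**Figure D5:**
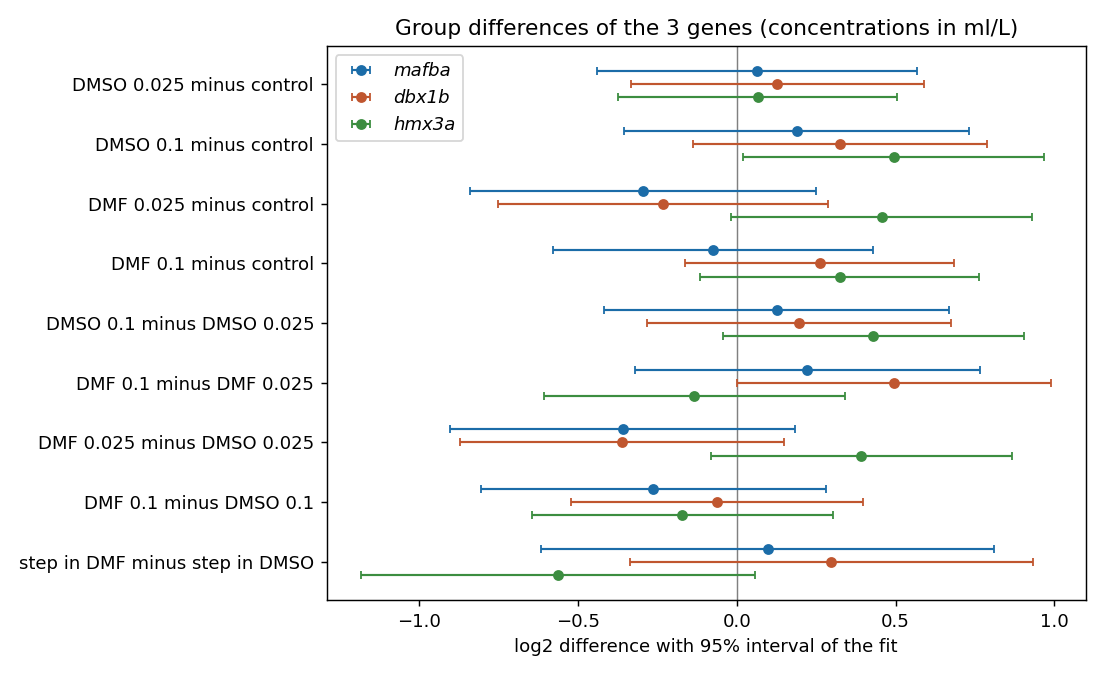
Fitted log2 differences of mafba, dbx1b and hmx3a in the 8 comparisons of groups and in the difference of the concentration steps, with 95% intervals. The interval of hmx3a for DMSO 0.1 ml/L minus control runs from 0.02 to 0.97 and does not reach 0; none of the values passed after adjustment.

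Few other genes of the same pathways could be followed, since 47 of the 16578 probe spots had a gene symbol. The remaining spots were not searched for the listed genes. Of 33 hindbrain symbols listed, 7 were among the spots with a symbol and 4 were tested. These were mafba, the hox genes hoxb1b and hoxb5a, and rarga, a receptor for retinoic acid, the signal that patterns the posterior hindbrain. With high DMSO against control, hoxb1b had 0.21 ± 0.25, hoxb5a 0.14 ± 0.25 and rarga -0.34 ± 0.30. The hindbrain genes egr2b, hoxa2b and cyp26a1 had a spot but too few graded values. Of 33 spinal cord progenitor symbols, dbx1b was the 1 among the spots with a symbol. Of 37 ear and lateral line symbols, 4 were among them, and hmx3a and the homeobox gene dlx5a were tested. For dlx5a, high DMSO minus control was 1.48 ± 0.63 (adjusted p = 0.376), with a standard error above those of the hindbrain genes. How far the size of that value depends on the treatment of low amplitudes was not tested. No tested gene of the 3 lists was called in any of the 8 comparisons.

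The authors' deposited table of log2 ratios gave mostly the same signs. On single arrays it had the same sign as the loess ratios on 16 of 18 for mafba, 18 of 18 for dbx1b and 16 of 18 for hmx3a. The count for dbx1b includes the grade E spot of array 7, which was left out of the fit. For the pair means, which enter the tests, the signs were the same in 9 of 9 pairs for mafba. They were the same in 7 of 8 pairs for dbx1b and in 7 of 9 for hmx3a. Fitted in the same way, the deposited table gave hmx3a a difference from control of 0.34 with high DMSO, 0.41 with low DMF and 0.23 with high DMF. For dbx1b, low DMF minus control was 0.07 in that table, opposite in sign to the -0.23 above, and the table includes the grade E spot.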

How the data were processed

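The deposited scanner files give 1 spot intensity per channel, the amplitude estimated by BlueFuse for Microarrays, with version 3.3 named in 2 of the file headers and 3.6 in 18 of them, per the file headers. Per the file headers they also give a confidence score per spot with its grade, and a fraction, the probability that a channel holds signal. The deposited value table holds log2 ratios of Cy5 over Cy3 made by the authors in a way not given in the sources used here. Genome build and probe positions in the genome were not used here.

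Ratios were computed from the amplitudes, with no background correction, with limma 3.58.1 under R 4.3.3, beside statmod 1.5.0 and jsonlite 2.0.0. Of 17328 spots, 750 controls had weight 0 in the loess (span 0.3, 4 iterations) and were left out, as were grade E spots; 172 spots of 1 repeated probe were averaged. Both dye orientations were turned the same way and averaged, which gave 1 ratio per pair of pools. Of 61 spots with a RefSeq transcript name, 47 matched a symbol in the reference gene table. The model (lmFit, eBayes) had 4 coefficients, each an exposed group minus control, 5 residual and 8.18 prior degrees of freedom. Benjamini-Hochberg adjustment ran over 3652 probes with a ratio in at least 8 pairs, at a threshold of 0.05. Levels were taken after loess and Aquantile, as the mean of the 2 arrays of a pool. Array 1 was left out because it names the scan of another array. The fit was tested on simulated data.

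Earlier results of these data were known when the 3 members, the lists and the naming rule were chosen. Named were all members and, per member, the 3 named and 2 other probes of highest cosine. The labels number the pools by replicate and tie each to a plate. Each pool entered a single dye-swapped pair, so p-values measure the spread between plates together with that between hybridisations. Same-numbered pools deviated together in 11 of 32 pool pairs (correlation over 0.1, range -0.51 to 0.40 over 2685 probes). Without a count for differently numbered pools, this cannot decide whether the numbers pair pools. The main fit did not take them as pairing pools. The number of arrays limits the precision. Alternatives covered the array set, confidence filter, loess, background, value table, dye model, channels, scan batch, replicate block and each left-out pair.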

Additional observations from a re-analysis of the deposited data

Results flagged for a closer look

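For mafba, control replicate 1 lay far below the other control pools, at a log2 level of 9.38 against 9.98 to 10.08, and this gap made up 0.849 of the range of the group. With low DMSO, replicate 3 lay below the other pools at 9.50 against 9.93 to 10.00, a gap of 0.872 of the range. Both are pools whose channel lay close to empty spots on both of their arrays, and the part of this in their levels was not tested. Other such pools lay at either end. Low DMSO replicates 2 and 4 had 9.98 and 10.00, high DMSO replicate 3 had 10.28 and low DMF replicate 1 had 9.13. Of 8 groups of 4 pools examined over the 3 genes, 2 were picked out, while chance picks out about 1 in 20 for independent values. The groups hold the same pools for different genes and are not independent, and an excess over chance was not tested.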

How the results depend on the processing

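None of the 3 genes was called in the 8 comparisons under any alternative in which it could be tested. With only spots of a confidence of at least 0.5, no member had enough pairs, and that alternative gave no value. The F test called 1 member, hmx3a, with separate channels (adjusted p = 0.0309), a fit that counts the 18 arrays as independent, called 406 of 2685 probes and could not include dbx1b. There, the step in DMF minus that in DMSO was also called for hmx3a (-0.61, adjusted p = 0.0442).

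The signs of hmx3a were kept in all alternatives for 7 of the 8 comparisons. For low DMSO minus control its value was -0.32 with median centring and -0.29 with the empty-spot background. For mafba that comparison gave -0.35 and -0.45, and for dbx1b -0.34, -0.19 and, with grade E spots kept, -0.034. Median centring also gave -0.033 for mafba (high DMSO minus control), and for dbx1b 0.057 and 0.14 (DMF minus DMSO at 0.025 and 0.1 ml/L). Grade E spots turned DMF minus DMSO at 0.025 ml/L to 0.018 for dbx1b, the authors' value table gave it 0.071 for low DMF minus control, and the second scan batch gave 0.19 for DMF minus DMSO at 0.1 ml/L. The step in DMF minus that in DMSO turned for mafba with median centring (-0.024), normexp (-0.0086), the empty-spot background (-0.92) and the second scan batch (-0.19), and for dbx1b with grade E spots (-0.027) and the empty-spot background (-0.25). With the replicate block, which could not include dbx1b, mafba had 0.44 and 0.24 for DMF minus control (0.025 and 0.1 ml/L), -0.21 between the DMF concentrations, 0.052 for DMF minus DMSO at 0.025 ml/L and -0.22 for the difference of the steps; it changed no call. The cause of these turns was not tested.

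With 1 pair left out, mafba ranged from -0.26 to 0.27 (low DMSO minus control), -0.53 to 0.18 (low DMF minus control), -0.24 to 0.13 (high DMF minus control), -0.047 to 0.29 (between DMSO concentrations), -0.051 to 0.45 (between DMF concentrations) and -0.11 to 0.44 (difference of the steps). For dbx1b the ranges were -0.49 to 0.15 (low DMF minus control) and -0.15 to 0.011 (DMF minus DMSO at 0.1 ml/L), and for hmx3a -0.18 to 0.18 (low DMSO minus control). Without a change of sign, other values moved by over 1.5 times. For mafba, high DMSO minus control ranged from 0.027 to 0.33, and DMF minus DMSO from -0.76 to -0.087 (0.025 ml/L) and from -0.44 to -0.16 (0.1 ml/L). For dbx1b, low and high DMSO minus control ranged from 0.0044 to 0.24 and from 0.20 to 0.39, the DMSO and DMF steps from 0.097 to 0.27 and from 0.24 to 0.88, low DMF minus low DMSO from -0.68 to -0.042, and the difference of the steps from 0.042 to 0.68. For hmx3a, high DMF minus control ranged from 0.20 to 0.49, the DMSO and DMF steps from 0.15 to 0.55 and from -0.29 to -0.048, DMF minus DMSO from 0.24 to 0.52 (0.025 ml/L) and from -0.34 to -0.013 (0.1 ml/L), and the difference of the steps from -0.71 to -0.32. The low ends of high DMSO minus control for mafba and of high DMF minus control for hmx3a came without low DMSO replicate 1 and control replicate 1, that of high DMSO minus control for dbx1b without high DMSO replicate 3 and control replicate 4. Array 14 and the other channels near empty spots limit what the second batch can show.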

Other observations

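Arrays 1 and 2, which entered no comparison, also hold the 3 spots. On array 1 the loess log2 ratio of Cy5 over Cy3 was -0.07 for mafba, 0.23 for dbx1b and 0.40 for hmx3a, and array 17, whose scan it names, gave -0.07, 0.23 and 0.40. The hmx3a amplitudes of these arrays were equal in both channels, at 324.4 in Cy3 and 469.1 in Cy5. On array 2 the mafba ratio was -0.12 with grade B, while the dbx1b and hmx3a spots had grade E with a confidence of 0.72 and 0.44.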
